A study of Bos indicus with 72 samples.

Results

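The uterus of pre-pubertal heifers held RNA of 5 genes whose mean level in post-pubertal uterus was at most 10.3% of the pre-pubertal mean. These were ENSBTAG00000037693, ENSBTAG00000046158, ENSBTAG00000009314, ENSBTAG00000016542 and ENSBTAG00000027513. They are 5 of the 14437 genes in the uterus files and of the 24616 genes listed for the other tissues. They were chosen by their uterus values, as genes expressed in pre-pubertal uterus and at about 1 RPKM or lower in post-pubertal uterus. RPKM is the read number scaled to gene length and library size. The uterus contrast of these genes is therefore given as a description, without a test. The other tissues, which played no part in the choice, were tested.

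The 72 RNA-seq libraries of the study came from 12 heifers of the Brahman breed (Bos indicus), each sampled in 6 tissues. The tissues were uterus, liver, pituitary, hypothalamus, left ovary and right ovary, and each had 6 libraries labelled post-puberty and 6 labelled pre-puberty. All groups shared the breed, and no age, treatment or genotype that differs between them was given. Each animal was a separate replicate. Animals 2054 and 2059 carried conflicting labels: in uterus and liver 2054 was labelled post-pubertal and 2059 pre-pubertal, and in the other 4 tissues the reverse. The column headers of the liver files go against the liver labels, with 2054 as pre and 2059 as post. Uterus and liver groups below are therefore the remaining 5 post-pubertal and 5 pre-pubertal heifers, and the uterus values of 2054 and 2059 stand beside them.

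The uterus consists of endometrium, the lining with its glands, over smooth muscle. At puberty the first ovulation and the corpus luteum bring cyclic estradiol and progesterone, and the endometrium, rich in receptors for both steroids, is known to change its gene expression and secretions with their levels. The identifiers are not paired with gene symbols in the sources used here, so the functions of the 5 genes are not given, and neither the labelled tissues nor other genes of a pathway could be checked by known markers. In bulk tissue, fewer cells of a type and less RNA per cell cannot be told apart.

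Depth differed between tissues. Reads in genes, as recovered or counted, lay between 19.6 and 26.3 mega-reads in the uterus, 19.5 and 26.9 in the liver, 4.43 and 9.76 in the pituitary and 4.84 and 10.4 in the hypothalamus. The ovaries held between 185848 and 272306 gene reads on the left and between 184808 and 334454 on the right, 0.352% to 1.10% of their reads. A level resting on 3 reads, taken as the floor for a gene with none, was for ENSBTAG00000037693 between 0.0245 and 0.0344 RPKM in the liver and between 2.14 and 3.87 RPKM in the right ovary. Intervals and floors cover counting error only.

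The uterus files hold log2 values that are never below 0, so the sign of the logarithm is missing and a value can stand for a level above or below 1 RPKM. Each value of the 5 genes was therefore read both ways and the reading kept that gave a whole number of reads, given the library total and the gene length. Exactly 1 reading was whole for 60 of 60 values. Gene lengths were searched for so that every uterus value had a whole reading, so that part was fixed by the search. That the other reading was not whole was not a condition of the search. With the totals exchanged between libraries 1 of 60 values was whole, but the lengths were kept and not searched for again, so that count is no fair control. The choice of reading uses whole reads and not the puberty label. Of the 30 values in libraries labelled post-pubertal, 26 were read as below 1 RPKM, and of the 30 in libraries labelled pre-pubertal, 0 were.

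The reading decides what ENSBTAG00000027513 shows. Its deposited values in the post-pubertal libraries of 2064, 2057, 2056, 2061 and 2047 were 2.27, 3.11, 1.81, 3.03 and 2.55, and in the pre-pubertal libraries of 2048, 2049, 2055, 2046 and 2060 they were 1.11, 0.501, 0.998, 0.870 and 0.398. Taken at face value the post-pubertal libraries would be the higher ones, without overlap. Whole reads placed all 5 post-pubertal values below 1 RPKM: in the library of 2064 the positive reading gave 139.4 reads and the negative reading 6. The most extreme case was ENSBTAG00000037693 in the library of 2057, deposited as 5.55, which is 4600.3 reads if positive and 2 if negative.

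**Figure D1:**
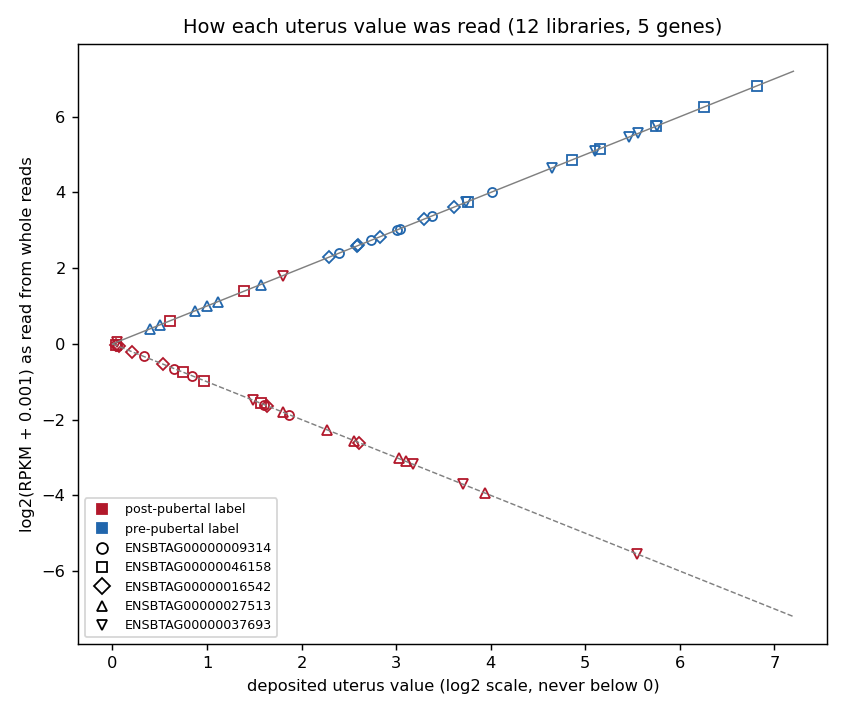
Deposited uterus value (x axis, log2 scale, never below 0) against the log2(RPKM + 0.001) value read from whole reads (y axis), for 12 libraries and 5 genes. Points on the rising line were read as above 1 RPKM and points on the falling dashed line as below it. The 26 values on the falling line all belong to libraries labelled post-pubertal, and 4 post-pubertal values lie on the rising line.

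ENSBTAG00000037693 and ENSBTAG00000046158 had the highest levels in pre-pubertal uterus and the largest differences. ENSBTAG00000037693 stood at 0.110, 0.0204, 1.03, 0.0753 and 3.48 RPKM in the post-pubertal uteri of 2064, 2057, 2056, 2061 and 2047, against 34.3, 13.3, 44.2, 25.0 and 47.1 RPKM in the pre-pubertal uteri of 2048, 2049, 2055, 2046 and 2060. The groups did not overlap. Among post-pubertal animals 2047 stood highest with 388 reads, where 2057 had 2 reads, so this gene was low in every post-pubertal uterus but not equally low. The means were 0.943 ± 1.48 RPKM post-pubertal and 32.8 ± 14.0 RPKM pre-pubertal (SD, n = 5 each), so that the post-pubertal mean was 2.88% of the pre-pubertal one. On the log2(RPKM + 0.5) scale, which understates changes of low genes, the difference was -4.90 ± 0.65 (SE).

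ENSBTAG00000046158 stood at 1.52, 0.595, 0.974, 2.63 and 0.509 RPKM in the same post-pubertal uteri, against 53.6, 13.5, 29.0, 35.5 and 76.5 RPKM in the pre-pubertal ones. The lowest pre-pubertal value lay above the highest post-pubertal one, and the post-pubertal uteri of 2064 and 2061 held more than 1 RPKM. The means were 1.25 ± 0.870 RPKM and 41.6 ± 24.2 RPKM (SD, n = 5 each), a post-pubertal share of 2.99% and a log2 difference of -4.50 ± 0.51 (SE). The pre-pubertal uterus of 2049 was the lowest of its group in both of these genes.

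ENSBTAG00000009314 and ENSBTAG00000016542 had moderate levels before puberty. ENSBTAG00000009314 stood at 0.966, 0.273, 0.634, 0.795 and 0.557 RPKM post-pubertal, against 5.27, 6.66, 8.21, 8.04 and 10.4 RPKM pre-pubertal. All 5 post-pubertal values lay below 1 RPKM and all 5 pre-pubertal values above 5 RPKM. Their means were 0.645 ± 0.261 RPKM and 7.71 ± 1.91 RPKM (SD, n = 5 each), a share of 8.36% and a log2 difference of -2.84 ± 0.22 (SE).

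ENSBTAG00000016542 stood at 0.866, 0.163, 0.975, 0.321 and 0.955 RPKM in post-pubertal uteri, against 6.06, 5.98, 7.10, 4.88 and 9.78 RPKM in pre-pubertal ones. Again the groups did not overlap, and 2057 was the lowest post-pubertal animal, as it was for ENSBTAG00000009314, ENSBTAG00000027513 and ENSBTAG00000037693. The means were 0.656 ± 0.385 RPKM and 6.76 ± 1.86 RPKM (SD, n = 5 each), a share of 9.71% and a log2 difference of -2.69 ± 0.29 (SE).

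ENSBTAG00000027513 was the least expressed of the 5 before puberty and had the lowest mean after it, although after puberty the median of ENSBTAG00000037693, 0.110 RPKM, lay below its median of 0.169 RPKM. It had 0.207, 0.115, 0.285, 0.122 and 0.169 RPKM in post-pubertal uteri, from 6, 3, 8, 3 and 5 reads, against 2.16, 1.41, 1.996, 1.83 and 1.32 RPKM in pre-pubertal uteri, from 57, 39, 48, 54 and 35 reads. The groups did not overlap, but a post-pubertal level of 3 reads is at the floor. The means were 0.180 ± 0.0698 RPKM and 1.74 ± 0.367 RPKM (SD, n = 5 each), a share of 10.3% and a log2 difference of -1.71 ± 0.13 (SE).

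All 5 post-pubertal libraries lay below all 5 pre-pubertal ones for 5 of the 5 genes, which the choice of the genes fixes. Over the 13031 uterus genes that reached 0.5 RPKM in 5 or more libraries the same held for 444, or 3.41%. The median log2 difference was -2.84 over the 5 genes and -0.03 over all 13031. Of the 25 post-pubertal values, 21 were below 1 RPKM, so "about 1 RPKM or lower" fits the group means better than every animal: ENSBTAG00000046158 in 2064 and 2061 and ENSBTAG00000037693 in 2056 and 2047 were the exceptions.

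**Figure D2:**
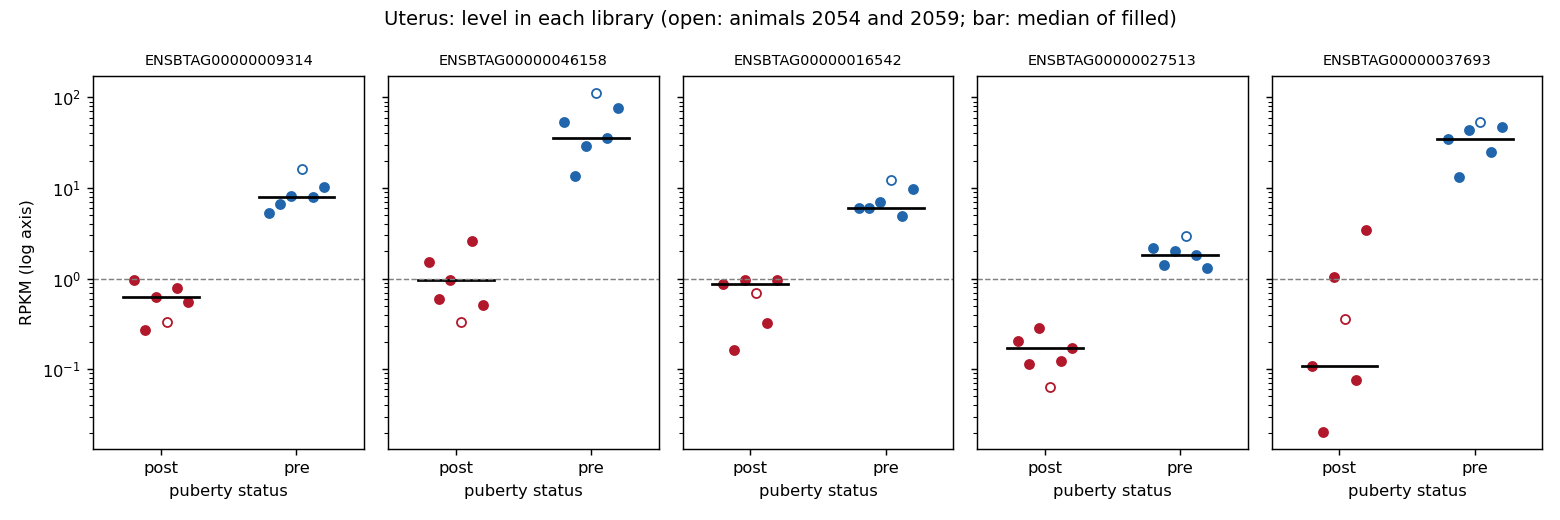
RPKM in each uterus library (log axis), post-pubertal in red on the left and pre-pubertal in blue on the right, 1 panel per gene, with a dashed line at 1 RPKM. Bars are medians of the 5 filled points, and open points are animals 2054 and 2059 as labelled in the uterus. In no panel do the groups overlap, and ENSBTAG00000037693 spreads most after puberty, between 0.0204 and 3.48 RPKM.

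The uterus libraries of the animals with conflicting labels lay with their uterus label in all 5 genes. The library of 2054, labelled post-pubertal, had 0.357 RPKM of ENSBTAG00000037693, 0.336 of ENSBTAG00000046158, 0.328 of ENSBTAG00000009314, 0.688 of ENSBTAG00000016542 and 0.0642 of ENSBTAG00000027513. The library of 2059, labelled pre-pubertal, had 54.1 RPKM of ENSBTAG00000037693, 113 of ENSBTAG00000046158, 16.2 of ENSBTAG00000009314, 12.2 of ENSBTAG00000016542 and 2.96 of ENSBTAG00000027513, the highest level of the 12 libraries in all 5. The genes were chosen on the uterus labels, so these values are no independent evidence on the labels of either animal. With both animals placed by their label in the other 4 tissues instead, none of the 5 genes kept the groups apart, and the post-pubertal mean of ENSBTAG00000009314 was 3.23 ± 6.35 RPKM against 6.48 ± 3.47 RPKM pre-pubertal (SD, n = 6 each).

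File names divide the uterus libraries into a first and a second set, each with both groups. In the first set, with 3 post-pubertal and 3 pre-pubertal libraries, the log2 difference was -5.14 for ENSBTAG00000037693, -4.25 for ENSBTAG00000046158, -2.71 for ENSBTAG00000009314, -2.64 for ENSBTAG00000016542 and -1.74 for ENSBTAG00000027513. In the second, with 2 and 2, it was -4.53 for ENSBTAG00000037693, -4.89 for ENSBTAG00000046158, -3.04 for ENSBTAG00000009314, -2.77 for ENSBTAG00000016542 and -1.67 for ENSBTAG00000027513. Groups that are apart over all libraries are apart in any set of them, so the lack of overlap within sets adds nothing.

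The limits met by the 5 genes together were a pre-pubertal mean of at least 1.74 RPKM, a post-pubertal mean of at most 1.25 RPKM and a post-pubertal share of at most 10.3%. In all 15 uterus genes met them without overlap, so 10 further genes behaved alike and the 5 are not the whole of this class. Another 34 genes met both limits on the means without overlap but had a larger post-pubertal share. Just inside on the post-pubertal mean was ENSBTAG00000046158 itself. The nearest gene outside on that mean, within the other limits, was ENSBTAG00000011873, with 2.86 ± 2.47 RPKM post-pubertal and 36.1 ± 14.9 RPKM pre-pubertal (SD, n = 5 each).

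The profiles over the 10 uterus libraries were alike among the 5, all of which were chosen for the same contrast. Each gene correlated with the mean profile of the other 4 with Pearson's r between 0.948 for ENSBTAG00000046158 and 0.976 for ENSBTAG00000016542. The other genes most like the 5 were ENSBTAG00000013336, with r of 0.989, and ENSBTAG00000010590, with r of 0.976. ENSBTAG00000013336 had 0.444 ± 0.307 RPKM post-pubertal and 6.58 ± 1.71 RPKM pre-pubertal, and ENSBTAG00000010590 had 9.24 ± 0.957 RPKM and 22.7 ± 3.77 RPKM (SD, n = 5 each), so likeness of profile did not require low levels after puberty. These r are descriptions over 10 libraries of 2 groups.

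Across tissues the 5 genes shared little beyond the uterus. Levels were compared as RPKM with the same gene lengths. The totals behind the deposited RPKM were 1.01 to 1.13 times the gene reads in the uterus and 1.05 to 1.09 times in the liver, whereas gene reads themselves were the total in the other tissues, so small differences between tissues are not comparable. In the ovaries those gene reads were 0.352% to 1.10% of all reads. The place of the ovaries in any order of tissues below rests on that small total.

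ENSBTAG00000046158 was a liver-abundant gene. Over the 12 liver libraries it ranged from 1644 to 2324 RPKM with a median of 2075 RPKM, and by mean level it ranked 41 from the top among 17853 genes with a value above 0 in the liver. Every liver library lay above every library of the other tissues. Next in order by median came pre-pubertal uterus with 35.5 RPKM, left ovary with 22.5, right ovary with 21.0, pituitary with 8.13, hypothalamus with 2.88 and post-pubertal uterus with 0.974 RPKM, and each of these neighbours overlapped the next in range.

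Outside the ovaries, ENSBTAG00000037693 and ENSBTAG00000027513 were highest by median in pre-pubertal uterus, and the next tissue in order was the pituitary. The ranges of the 2 tissues did not overlap. For ENSBTAG00000027513 the nearest values were 1.32 RPKM in the uterus of 2060 and 1.22 RPKM, from 8 reads, in the pituitary of 2057. Those are too near to be placed apart given the few reads and the unlike totals. For ENSBTAG00000037693 the medians were 34.3 RPKM in pre-pubertal uterus, 2.19 in pituitary and 0.110 in post-pubertal uterus. It had 0 reads in 11 of 12 hypothalamus libraries and in 7 of 12 livers, and the liver maximum was 21 reads, or 0.187 RPKM. It also had 0 reads in 12 of 12 left and 10 of 12 right ovaries, but there 3 reads amount to between 2.62 and 3.84 RPKM on the left and between 2.14 and 3.87 RPKM on the right. Those floors lie near or above the pituitary median and below every pre-pubertal uterus, so the ovaries cannot be placed against the pituitary for this gene. For ENSBTAG00000027513 the medians were 1.83 RPKM in pre-pubertal uterus, 0.320 in pituitary, 0.169 in post-pubertal uterus and 0.147 in hypothalamus, and outside the uterus no library had more than 8 reads. In the ovaries 3 reads of it amount to between 8.06 and 14.6 RPKM, above every uterus level, and a single read gave up to 3.96 RPKM, so its ovary level cannot be placed in this order.

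ENSBTAG00000016542 was about as high in the pituitary as in pre-pubertal uterus, with medians of 5.88 and 6.06 RPKM and overlapping ranges. Liver followed with 2.83 RPKM, hypothalamus with 1.60 and post-pubertal uterus with 0.866 RPKM. Post-pubertal uterus, at most 0.975 RPKM, lay below every liver and pituitary library. The lowest hypothalamus library had 1.05 RPKM, too near to be placed apart from post-pubertal uterus given the unlike totals. ENSBTAG00000009314 was detected in all 72 libraries. Its median was 15.0 RPKM in left ovary, 11.4 in right ovary, 8.04 in pre-pubertal uterus, 2.46 in pituitary, 1.64 in hypothalamus, 0.878 in liver and 0.634 in post-pubertal uterus, with overlap between each neighbour and the next. In the ovaries 3 reads amount to between 3.58 and 6.49 RPKM for this gene, so those levels are coarse. The ovaries stand above pre-pubertal uterus only as scaled to their small gene read totals, so that rank is not a settled one.

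**Figure D3:**
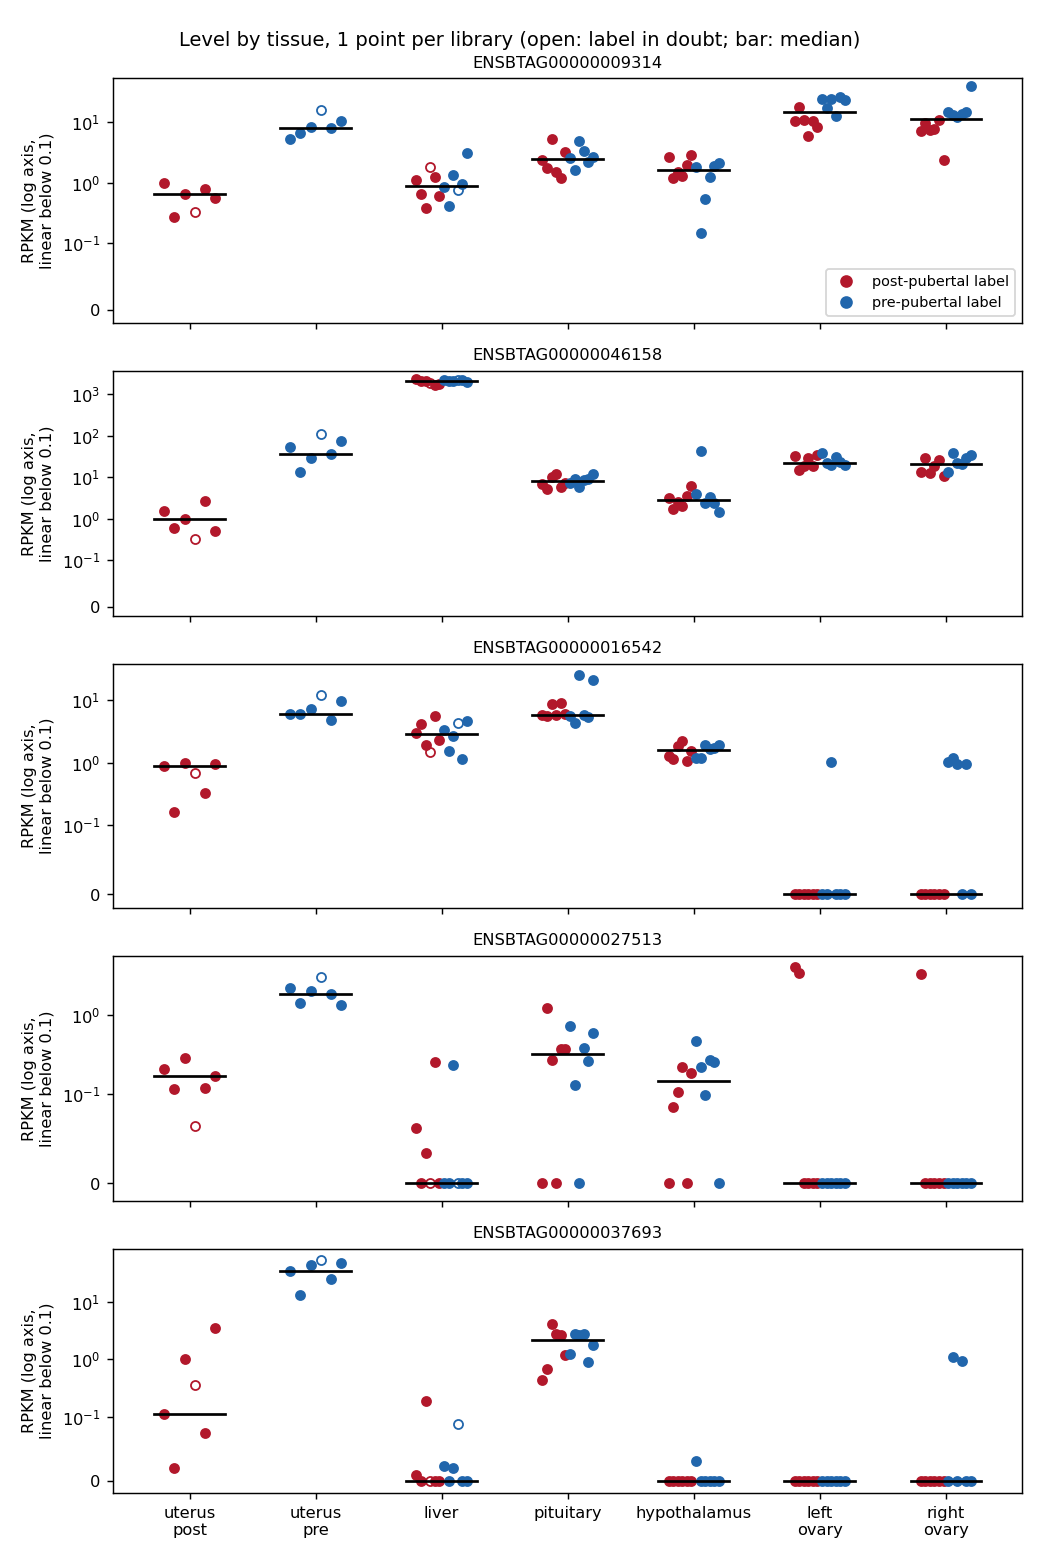
RPKM of the 5 genes in each library by tissue (log axis, linear below 0.1), post-pubertal labels in red and pre-pubertal in blue. Open points are uterus and liver libraries of animals 2054 and 2059. Bars are medians, in the uterus over filled points. ENSBTAG00000046158 stands near 2075 RPKM in the liver. By median, ENSBTAG00000037693 and ENSBTAG00000027513 are highest in pre-pubertal uterus among uterus, pituitary, hypothalamus and liver. The ovary libraries are too shallow to place ENSBTAG00000027513.

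Outside the uterus, no fit across all genes called any of the 5 between the puberty groups. In the liver, 3 of the 5 could be tested and 0 were called, where 0% of 11697 genes were called (limma on log2(RPKM + 0.5), adjusted p under 0.05; 200 genes at an unadjusted p under 0.05, and edgeR on recovered reads also called 0). ENSBTAG00000046158 ranged over 1802, 1644, 2050, 2083 and 2324 RPKM in the post-pubertal livers of 2047, 2061, 2057, 2056 and 2064, against 2194, 2096, 2067, 2237 and 1935 RPKM in the pre-pubertal livers of 2048, 2049, 2055, 2046 and 2060. The groups overlapped and the log2 difference was -0.10 ± 0.13 (SE; limma adjusted p = 0.9998). ENSBTAG00000009314 had a log2 difference of -0.37 ± 0.33 (SE) and ENSBTAG00000016542 of 0.34 ± 0.34 (SE). Their limma adjusted p was 0.9998 for both, and the groups overlapped.

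In the pituitary 4 of the 5 genes could be tested and 0 were called, where 0% of 13335 genes were called (edgeR quasi-likelihood test; 203 at an unadjusted p under 0.05, and DESeq2 called 0). ENSBTAG00000037693 had a lowest, median and highest level of 0.441, 1.89 and 4.12 RPKM in 6 post-pubertal pituitaries, against 0.901, 2.23 and 2.78 RPKM in 6 pre-pubertal ones. The groups overlapped throughout, and the log2 difference was -0.11 ± 0.44 (SE; edgeR adjusted p = 0.9999). This gene, with the largest difference in the uterus, thus had a pituitary difference whose error spans 0.

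ENSBTAG00000016542 in the pituitary had 5.55, 5.90 and 9.09 RPKM post-pubertal and 4.37, 5.68 and 25.7 RPKM pre-pubertal, as lowest, median and highest. Animals 2055 with 25.7 RPKM and 2060 with 20.6 RPKM stood above all other pituitaries, while the other 4 pre-pubertal animals lay within or below the post-pubertal range. The log2 difference was -0.66 ± 0.39 (SE; edgeR adjusted p = 0.9999). For ENSBTAG00000009314 it was -0.22 ± 0.28 (SE) and for ENSBTAG00000046158 -0.21 ± 0.20 (SE), with edgeR adjusted p of 0.9999 each.

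In the hypothalamus 3 of the 5 genes could be tested and 0 were called, where 0% of 13713 genes were called (edgeR quasi-likelihood test; 475 at an unadjusted p under 0.05, and DESeq2 called 1 gene of all). The largest value belonged to ENSBTAG00000046158, with 1.77, 2.88 and 6.09 RPKM post-pubertal and 1.46, 2.82 and 42.8 RPKM pre-pubertal as lowest, median and highest. A single library, that of pre-pubertal animal 2049, held 864 reads where the others held between 31 and 79, and the medians were nearly equal. The log2 difference was -1.54 ± 0.79 (SE; edgeR adjusted p = 0.979) and turned to 0.21 without that animal.

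The hypothalamus library of 2049 stood apart more widely. In it 469 genes lay over 4-fold above the median of the other 11 libraries and 49 over 4-fold below, where the library of 2047 had 344 and 13. Its 3 reads of ENSBTAG00000009314 were the fewest of the 12 libraries. The part of this library's profile in the values of the 5 genes was not tested beyond leaving it out. ENSBTAG00000009314 had a log2 difference of 0.54 ± 0.47 (SE; edgeR adjusted p = 0.979) and ENSBTAG00000016542 of -0.07 ± 0.22 (SE; edgeR adjusted p = 0.996).

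**Figure D4:**
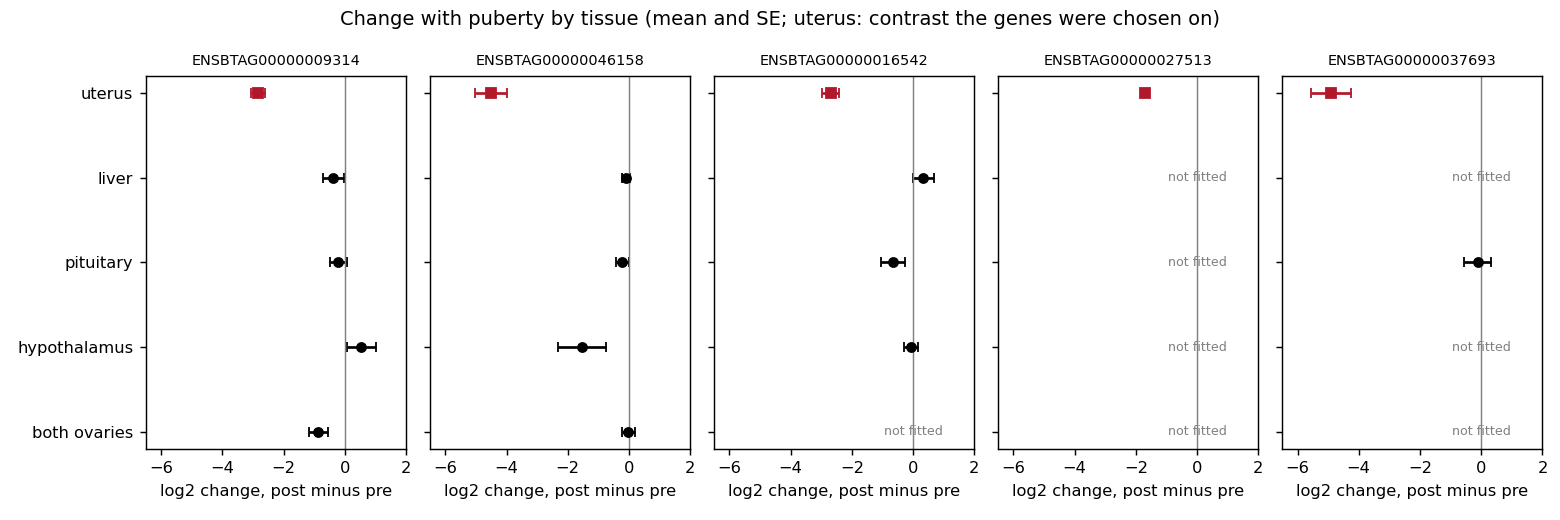
Log2 difference between post-pubertal and pre-pubertal libraries (x axis, post minus pre) by tissue, 1 panel per gene, with SE as error bars. Red squares are the uterus, the contrast the genes were chosen on, on the log2(RPKM + 0.5) scale. Black points are limma for the liver and edgeR for pituitary, hypothalamus and the summed ovaries. The uterus values lie between -4.90 and -1.71, and the lowest other value, -1.54 for ENSBTAG00000046158 in the hypothalamus, rests on the library of 2049.

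In the ovaries only ENSBTAG00000046158 passed the filter on low counts on either side. It was not called in the left ovary, where 0% of 1922 genes were called (102 at an unadjusted p under 0.05, and DESeq2 also called 0). Nor was it called in the right, where 2.41% of 2073 genes were called (380 at an unadjusted p under 0.05, and DESeq2 called 165 of 4838). Its log2 difference was 0.03 ± 0.29 (SE; edgeR adjusted p = 0.995) on the left and -0.01 ± 0.33 (SE; edgeR adjusted p = 0.993) on the right. ENSBTAG00000016542, ENSBTAG00000027513 and ENSBTAG00000037693 had 0 or 1 read in every ovary, under the floor of 3 reads, so their groups cannot be compared at this depth. edgeR without a filter called none of them on either side, where 4 of 15815 genes were called on the left and 265 of 15978 on the right. Its lowest unadjusted p among them was 0.0298, for ENSBTAG00000016542 on the right (log2 difference -2.55 ± 1.17, SE; adjusted p = 0.373). The only ovary reads of ENSBTAG00000027513 were 1 each in the post-pubertal libraries of 2064 and 2057 on the left and of 2064 on the right. No direction can be read from them.

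ENSBTAG00000009314 had lower ovary levels after puberty, on few reads. On the left its lowest, median and highest level was 5.98, 10.5 and 17.6 RPKM in 6 post-pubertal ovaries, from 3 to 12 reads, against 12.8, 23.4 and 26.1 RPKM in 6 pre-pubertal ones, from 7 to 15 reads. On the right it was 2.39, 7.63 and 10.8 RPKM post-pubertal, from 2 to 7 reads, against 12.1, 14.3 and 40.1 RPKM pre-pubertal, from 7 to 26 reads. The right groups did not overlap in RPKM, but both read ranges include 7 reads. Their nearest values were 10.8 RPKM from 5 reads in post-pubertal 2061 and 12.1 RPKM from 8 reads in pre-pubertal 2055. In that library of 2061, 3 reads amount to 6.49 RPKM, so the gap lies within counting error. On the left the post-pubertal library of 2057 lay above the pre-pubertal ones of 2054 and 2049.

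Exact two-sided permutation tests of the mean RPKM gave p = 0.00649 on the left and p = 0.00217 on the right, the smallest p that 6 against 6 allow, for ENSBTAG00000009314. For ENSBTAG00000046158 the exact permutation tests gave p = 0.842 on the left and p = 0.141 on the right. These 4 tests were added after the values were seen and are not adjusted for the other genes of the table. The ovaries of an animal are not independent of each other. The tests kept animals 2054 and 2059 under their ovary labels. Without both, the exact permutation p of ENSBTAG00000009314 was 0.0159 on the left. On the right it was then 0.00794, the smallest p that 5 against 5 allow. The fits across all genes did not call ENSBTAG00000009314 on either side. Of all genes, DESeq2 called 0 of 15782 on the left and 165 of 4838 on the right. Without a filter, edgeR called 4 of 15815 on the left and 265 of 15978 on the right. On the left DESeq2 gave a log2 difference of -0.81 ± 0.43 (SE; unadjusted p = 0.0629, adjusted p = 0.991) and edgeR without a filter -0.84 ± 0.42 (SE; unadjusted p = 0.046, adjusted p = 0.711). On the right DESeq2 gave -0.94 ± 0.49 (SE; unadjusted p = 0.0568, adjusted p = 0.366) and edgeR without a filter -0.94 ± 0.44 (SE; unadjusted p = 0.0313, adjusted p = 0.381).

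The permutation tests used RPKM, which carry no TMM factors, and the scales differ on the right. There ENSBTAG00000046158 averaged 18.4 ± 7.68 RPKM post-pubertal and 26.2 ± 9.35 RPKM pre-pubertal (SD, n = 6 each), while the log2 difference with TMM factors was -0.01. Whether the right groups of ENSBTAG00000009314 stay apart with TMM factors was not tested. In the counts of both ovaries summed per animal, ENSBTAG00000009314 had a log2 difference of -0.87 ± 0.30 (SE), which missed the threshold over all 3212 genes (edgeR adjusted p = 0.208), where 0.311% of genes were called and 0 of the 2 testable genes of the 5.

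Within library sets the direction for ENSBTAG00000009314 was the same, which on the right follows from the lack of overlap over all libraries. On the left the means were 13.0 and 21.6 RPKM post-pubertal and pre-pubertal in the first set and 8.22 and 20.7 RPKM in the second, and on the right 8.20 and 13.2 RPKM and 6.97 and 23.0 RPKM, each with 3 libraries per group, where an exact permutation test cannot go below p = 0.10. Without the pre-pubertal right ovary of 2060, whose 40.1 RPKM was far above the rest, the right means were 7.58 and 13.7 RPKM.

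**Figure D5:**
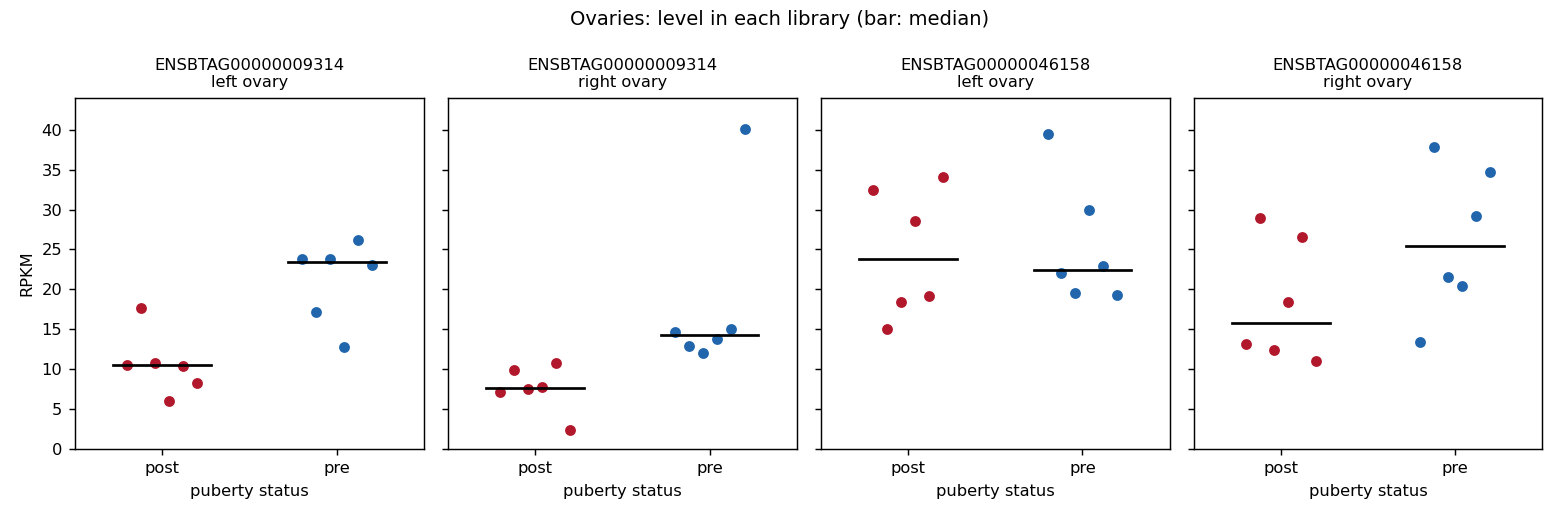
RPKM of ENSBTAG00000009314 and ENSBTAG00000046158 in each ovary library, post-pubertal in red on the left of each panel and pre-pubertal in blue on the right, with medians as bars and 6 libraries per group. ENSBTAG00000009314 is lower after puberty in the right ovary, without overlap in RPKM but with nearest values of 10.8 and 12.1 RPKM. Animal 2060 stands out there at 40.1 RPKM. ENSBTAG00000046158 overlaps on both sides.

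Pituitary and hypothalamus of the same animals were compared directly, a contrast unrelated to the choice of the genes. The main fit did not pair the libraries by animal. In it 3 of the 4 genes tested were called, where 79.8% of 13732 genes were called in either direction (edgeR quasi-likelihood test). The share called is thus close to that of all genes. These 3 were higher in the pituitary, and 5486 of all 13732 genes were called as higher there. With the animal as a replicate block the edgeR adjusted p was 1.48e-12 for ENSBTAG00000037693, 1.7e-08 for ENSBTAG00000016542 and 0.044 for ENSBTAG00000009314. The adjusted p below are of the main fit unless the block is named. ENSBTAG00000037693 had 0.441, 2.19 and 4.12 RPKM in 12 pituitaries, as lowest, median and highest, and in 12 hypothalami a single read in 1 library. It was higher in the pituitary of 12 of 12 animals, with 641 pituitary reads against 1 hypothalamus read, a ratio of 827 per gene read with an exact 95% counting interval from 148 to 32719 (edgeR adjusted p = 2.85e-14).

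ENSBTAG00000016542 averaged 9.02 ± 6.83 RPKM in pituitary and 1.55 ± 0.390 RPKM in hypothalamus (SD, n = 12 each) and was higher in the pituitary of 12 of 12 animals. Its log2 difference was 2.40 ± 0.26 (SE; edgeR adjusted p = 3.55e-09). ENSBTAG00000009314 averaged 2.71 ± 1.30 RPKM and 1.59 ± 0.791 RPKM (SD, n = 12 each), higher in the pituitary of 10 of 12 animals, with a log2 difference of 0.65 ± 0.28 (SE; edgeR adjusted p = 0.038). Without animals 2054 and 2059 the adjusted p of ENSBTAG00000009314 was 0.088, and without a filter on low counts it was 0.052.

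ENSBTAG00000046158 averaged 8.26 ± 2.29 RPKM in pituitary and 6.28 ± 11.6 RPKM in hypothalamus (SD, n = 12 each) and was higher in the pituitary of 11 of 12 animals, the exception being 2049. Its log2 difference was 0.36 ± 0.45 (SE; edgeR adjusted p = 0.459). With the animal as a replicate block it was 1.12 ± 0.32 (SE; edgeR adjusted p = 0.00497), where 80.3% of genes were called, and without animal 2049 it was 1.38 (edgeR adjusted p = 3.21e-07). ENSBTAG00000027513 did not pass the filter, with 32 reads summed over the pituitaries and 17 over the hypothalami.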

How the data were processed

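RNA was sequenced from 6 tissues of 12 heifers with a TruSeq kit on paired ends, per the labels' protocols. The authors deposited raw counts per gene for hypothalamus, pituitary and both ovaries. The deposited liver values are RPKM, from the values themselves. The deposited uterus values are on a log2 scale, the size of log2(RPKM + 0.001), from the values themselves. UMD3.1 is named as build by the submitters' processing notes. Aligner, annotation and strand setting: not given in the sources used here. Reads of overlapping or nearly identical genes may therefore be divided between them. Rows naming no gene stayed out of library sizes; the row for reads in no gene held a median of 58.6% of hypothalamus, 56.4% of pituitary, 89.7% of left ovary and 89.8% of right ovary reads.

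Library totals and gene lengths that turn RPKM into whole reads were searched for, with a tolerance of 0.003 reads plus rounding, and succeeded for 17848 of 17853 liver genes. In the uterus, 24206 of 173244 values were read as below 1 RPKM, 3132 as 0, and 1115 were not settled and kept as positive. RPKM of the counted tissues used the lengths so found and the gene reads. Counts were fitted with edgeR 4.0.16 (quasi-likelihood, TMM, filterByExpr, robust) and liver RPKM with limma 3.58.1 on log2(RPKM + 0.5), for genes reaching 0.5 RPKM in 5 or more libraries, trend and robust. Two-sided p-values were adjusted over all genes by Benjamini-Hochberg and called under 0.05. The edgeR standard errors came from the F statistic, and those of the uterus from the pooled SD. DESeq2 1.42.0, RLE factors, other filters and pseudocounts, library sets and left-out animals were alternatives. Leaving out animal 2049, summing the ovaries and the ovary permutation tests were chosen after seeing the data. On simulated data, the puberty fits of hypothalamus, pituitary, summed ovaries and liver were tested. The choice of reading of uterus values was tested there with library totals and gene lengths given. The search for those totals and lengths was not tested in this way.

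The genes, lists and alternatives were chosen with earlier results of these data known. Besides the 5 genes, the text names the 2 uterus genes most like their mean profile and the nearest gene outside the limits. Pituitary and hypothalamus are paired by the labelled animal number: over 6812 genes, the median r of the deviations from the group means was 0.098 for the same animal, ranging from -0.04 to 0.27, and 4 of 12 libraries matched their own animal best. None of the 24616 identifiers matched the RefSeq table, so no sequences or coordinates are given.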

Additional observations from a re-analysis of the deposited data

Results flagged for a closer look

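Of 44 groups of libraries with reads of the 5 genes, 4 held a value far from the others, where chance gives about 1 in 20. In pre-pubertal right ovary ENSBTAG00000009314 had 40.1 RPKM in animal 2060, with the nearest other at 15.0 RPKM, from 26 and 10 reads. In pre-pubertal hypothalamus ENSBTAG00000046158 had 42.8 RPKM in animal 2049, with the nearest other at 4.04 RPKM. In post-pubertal liver ENSBTAG00000027513 had 0.257 RPKM in animal 2061, with the nearest at 0.0616 RPKM, from 7 and 2 reads. In post-pubertal pituitary ENSBTAG00000027513 had 1.22 RPKM in animal 2057, with the nearest at 0.375 RPKM, from 8 and 3 reads.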

How the results depend on the processing

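Taking the uterus values as deposited left 2 of the 5 genes with groups apart and turned ENSBTAG00000027513 to 1.53 on the log2 scale, by construction. Placing 2054 and 2059 by their status in other tissues left 0 apart. The other uterus settings kept 5 apart. Once groups are apart, leaving out libraries, another pseudocount or no filter cannot make them overlap, and the genes were chosen on this contrast, so that count was fixed in advance under those settings. Leaving out each replicate moved the log2 differences within -5.39 to -4.65 for ENSBTAG00000037693, -4.85 to -4.23 for ENSBTAG00000046158, -2.96 to -2.71 for ENSBTAG00000009314, -2.80 to -2.51 for ENSBTAG00000016542 and -1.78 to -1.65 for ENSBTAG00000027513. With a pseudocount of 0.001 that of ENSBTAG00000037693 was -7.02, and with 1 it was -4.26.

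No fit across all genes called a gene of the 5 between puberty groups outside the uterus. Without each replicate in turn, the exact permutation p of ENSBTAG00000009314 lay between 0.00433 and 0.013 on the left. On the right it was 0.00433 each time, the smallest p possible, which the lack of overlap over all libraries fixed in advance. Without animals 2054 and 2059 together, the exact permutation p was 0.0159 on the left. On the right it was then 0.00794, again the smallest possible. ENSBTAG00000046158 changed sign without reaching the threshold: to 0.21 in the hypothalamus without 2049, to 0.0021 in the right ovary with the library set as a term, and, in summed ovaries without each replicate in turn, between -0.0908 and 0.0629. Its mean left ovary difference, -0.914 RPKM, was 3.19 in the second library set and between -2.80 and 1.88 without each replicate. Between pituitary and hypothalamus the replicate block called 4 of the 5 genes, where 80.3% of genes were called, against 3 without it, where 79.8% were. It changed no call but that of ENSBTAG00000046158. DESeq2 called 4, where 12861 of 17981 genes were called, and RLE factors 3, where 10962 of 13732 were. No filter called 2, where 13323 of 20321 were, and leaving out 2054 and 2059 called 2, where 10692 of 13734 were. Ovary depth limits what can be seen there to about 3 reads per gene.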
